A study of Ovis aries with 12 samples.

Results

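In the left ventricle of the sheep heart, miR-424-5p, the brightest product of an X-linked cluster of miRNA genes (miR-424, miR-503, miR-542 and the miR-450 group), read more than 10-fold higher shortly before birth (F140) than at mid-gestation (F91), and 5 days after birth (P5) it read within the range of the F91 hearts. The cluster was represented by 7 of the 1000 miRNA names on the array, arms and anonymous probes not counted, and by 16 of its 3091 probes, taken by the names miR-424, miR-322, miR-503, miR-542, miR-450, miR-450a, miR-450b and miR-450c, whichever species the probe was designed for. They cover 9 mature arms, an arm being the strand cut from the left (5p) or right (3p) side of the hairpin. miR-322 is the rodent name of miR-424. Of the 16 probes, 9 read at least 32 units of normalised signal on at least 3 arrays, as did 1122 of the 3091.

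Left ventricles of 12 Merino sheep used as normal controls were measured, with 3 animals for each age. By the labels F91 fetuses were of 91 days (titles) or 90 days (stage field), F140 fetuses were of 141 days, and P5 and P173 lambs were 5 and 173 days old. F91 replicate 3 was a male and the others were females, and F140 replicate 2 was a twin, as were all P5 lambs, so that twin birth and age cannot be told apart at P5. P5 replicates 1 and 2 carry array names with a common stem, and whether they were of 1 litter is not stated.

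The miRNAs of this cluster are cut from transcripts of 1 locus on the X chromosome in human, mouse and cattle, and they can be made together. A mature miRNA pairs with messenger RNA mainly through its seed, the bases near its 5′ end, and lowers the output of that messenger RNA. miR-424-5p has the seed of the miR-15/16 family and miR-503-5p nearly so. This family's known targets in human and mouse cells include cyclins and the phosphatase CDC25A, and in mouse muscle precursor cells miR-424-5p (miR-322) and miR-503-5p rise as the cells leave the cell cycle.

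The target sequences of the probes on which the results turn are shown 5′ to 3′ as the array annotation gives them, with the seed (bases 2 to 8) in capitals. They are shown because the members that were high at F140 and those that were not differ in base composition.
bta-miR-424-5p: cAGCAGCAauucauguuuuga
bta-miR-503-5p_R+3: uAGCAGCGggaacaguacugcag
bta-miR-424-3p: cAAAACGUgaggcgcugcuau
ssc-miR-542-3p: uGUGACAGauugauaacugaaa
bta-miR-542-5p: uCGGGGAUcaucaugucacgag
bta-miR-450a: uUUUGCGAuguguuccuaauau
bta-miR-450b: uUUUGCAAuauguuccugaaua
mmu-miR-450b-5p: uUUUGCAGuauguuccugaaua
miR-424-5p and miR-503-5p share bases 2 to 7, and within the seed they differ by A8G, counted from 1 at the 5′ end with the base of miR-424-5p first. The mouse and hamster probes named miR-322-5p have the same first 20 and 19 bases as bta-miR-424-5p, so these 3 probes share a target and are not replicates. The bovine and mouse probes of miR-450b-5p differ at a single base, A8G, inside the seed.

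Signals are the authors' normalised values on a linear scale, and each member was spotted 3 times per array. The scans differed in brightness, the 90th percentile of probes being 328 on F91 replicate 3 and 1970 on P173 replicate 1, and 906 to 1064 probes per array reached 32 units. Below background means under 32 units on each array of an age; folds over such an age are lower bounds, computed against 32 units. Values were tested as log2(value + 0.1) by limma over the 3091 probes and the 12 arrays. Rose, fell and called refer to a Benjamini-Hochberg adjusted p from limma of 0.05 or less. All adjusted p values below come from that fit unless a permutation test is named. With 3 arrays per age, the precision is limited.

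miR-424-5p, which represses cell-cycle genes in human and mouse cells, was the brightest member and had its high signal at F140. The bovine probe read 280, 85 and 40 units at F91, 1696, 1613 and 2054 at F140, 155, 170 and 83 at P5, and 174, 68 and 71 at P173. The 3 F140 hearts lay far above the 9 others, while the arrays of the other ages overlapped each other. The signal was 135 ± 128 units (SD, n = 3) at F91 and 1788 ± 234 at F140, a log2 change of 4.17 (standard error 0.60, adjusted p = 0.0027), or 18.1-fold between geometric means. It fell by 3.77 on the log2 scale to P5 (standard error 0.60, adjusted p = 0.0089), where it averaged 136 ± 46.5 units. This fall was no longer called without a variance trend or without P5 replicate 3 (adjusted p of at most 0.085). At P173 the signal averaged 104 ± 60.4 units, and the change from F91 was -0.06 (adjusted p = 0.99) and from P5 -0.46 (adjusted p = 0.83). The lowest F91 value was that of replicate 3, the only male and the dimmest scan, and without this array the change from F91 to F140 was 3.53 (adjusted p = 0.0088). In order, the levels ran F140, P5, F91 and P173, and only F140 stood apart from its neighbour beyond the spread. The F140 arrays were also above the 9 others in the scans before normalisation: the median of the 3 spots was 1598 to 2869 at F140 and 104 to 439 on the 9 other arrays, where empty spots read 49.4 to 90.0. The bulk tissue does not tell fewer cells of a type from less RNA per cell, here or below.

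**Figure D1:**
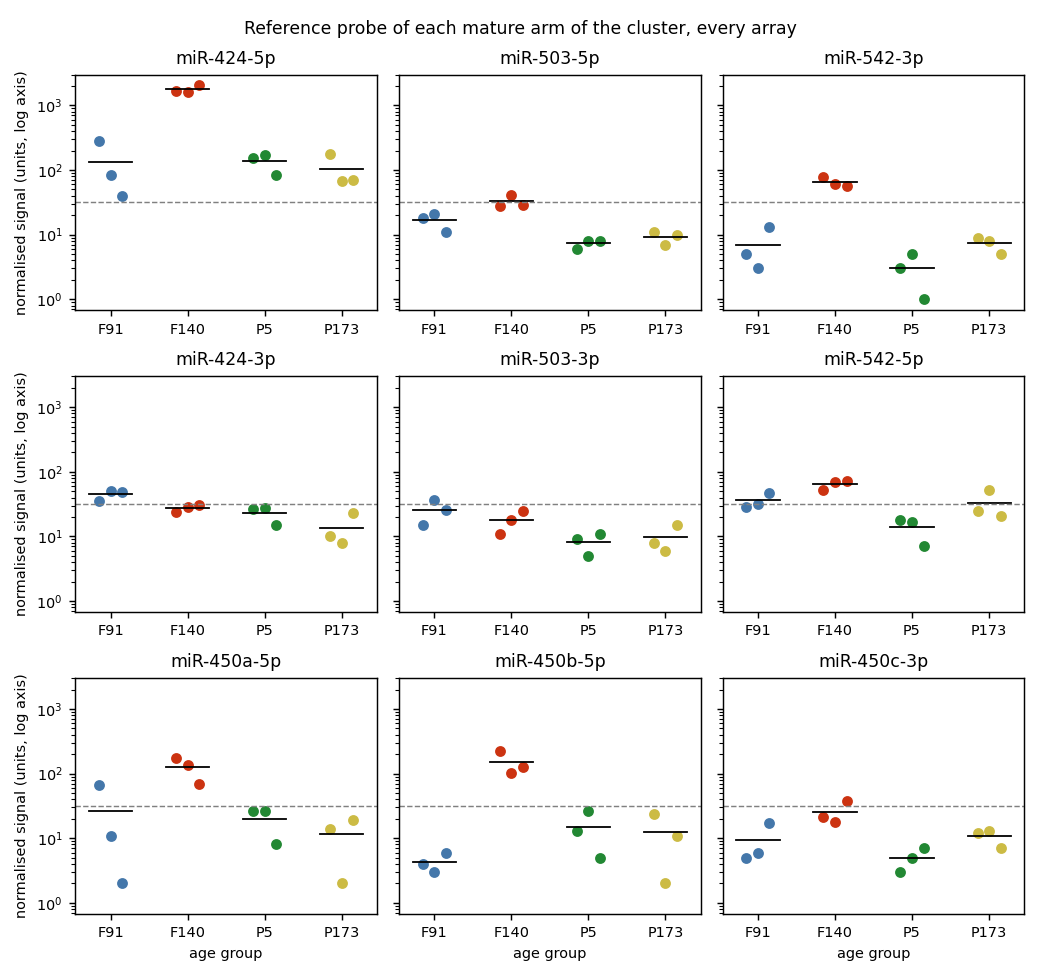
Normalised signal (units, log axis) of the reference probe of each of the 9 arms, by age group. Each point is 1 heart (3 per age), the black line is the mean of an age and the dashed line is 32 units. miR-424-5p read 1613 to 2054 units at F140 and 40 to 280 on all other arrays, while miR-424-3p read 24 to 31 at F140 and 35 to 51 at F91.

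The other probes of this arm were also brightest at F140. The hamster-derived probe of miR-322-5p read 375, 59 and 10 units at F91, 1011, 1099 and 1289 at F140, 70, 106 and 35 at P5, and 108, 44 and 44 at P173. The mouse probe read 85, 14 and 24 units at F91, 1090, 330 and 537 at F140, 22, 34 and 29 at P5, and 23, 6 and 16 at P173. On both probes every F140 array was above every other array. The log2 change from F91 to F140 was 4.21 (standard error 0.94, adjusted p = 0.02) on the hamster probe and 4.24 (standard error 0.70, adjusted p = 0.0059) on the mouse probe. This call of the hamster probe ended in 7 of 23 alternative settings, and that of the mouse probe in 1. The log2 change from F140 to P5 was -4.14 on the hamster probe (adjusted p = 0.041) and -4.37 on the mouse probe (adjusted p = 0.0089). These falls lost their call in 12 and 4 of the 23 settings, with an adjusted p of at most 0.20.

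miR-450b-5p, a neighbour of miR-424 in the cluster, was above background at F140 alone. The bovine probe read 4, 3 and 6 units at F91, 227, 103 and 128 at F140, 13, 26 and 5 at P5, and 24, 2 and 11 at P173. All 3 other ages were below background. F140 was at least 4.50-fold above F91 (log2 change 5.08, standard error 0.90, adjusted p = 0.0079), and no single left-out array ended this call. Against P5 the log2 change was -3.58 (adjusted p = 0.061), which did not pass the test, and from F140 to P173 the signal fell by 4.13 on the log2 scale (adjusted p = 0.022). That last call ended in 8 of 23 alternative settings, among them leaving out any 1 of the F140 arrays or P173 replicate 2, with an adjusted p of at most 0.11. The mouse probe, with its single different base in the seed, read 0 to 7 units on all 12 arrays and so gave no level for this arm.

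miR-450a-5p, whose seed has 1 base different from that of miR-450b-5p, was also brightest at F140 but varied more among the F91 hearts. Its probe read 67, 11 and 2 units at F91, 173, 134 and 70 at F140, 26, 26 and 8 at P5, and 14, 2 and 19 at P173. The lowest F140 heart was just above the highest F91 heart, so the groups did not overlap. The log2 change from F91 to F140 was 3.34 (standard error 1.13, adjusted p = 0.12) and did not pass the test. A probe of the same arm that lacks the last 4 bases read 108, 25 and 0 units at F91 and 204, 185 and 122 at F140, again without passing (adjusted p = 0.17).

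miR-542-3p, which targets the survival factor survivin in human cells, was above background only at F140. It read 5, 3 and 13 units at F91, 78, 61 and 56 at F140, 3, 5 and 1 at P5, and 9, 8 and 5 at P173. The F140 hearts were at least 2.01-fold above the other ages and did not overlap with them. The log2 change was 3.45 from F91 to F140 (standard error 0.84, adjusted p = 0.028), and the signal fell by 4.64 on the log2 scale to P5 (adjusted p = 0.015), while the change from F140 to P173 was -3.16 (adjusted p = 0.065). In the scans before normalisation the median of its 3 spots was 118 to 175 at F140 and 53.9 to 114 on the other arrays, with empty spots at 49.4 to 90.0, so the margin was small. The call against F91 ended without any 1 of the 3 F140 arrays or without F91 replicate 2, among other settings, with an adjusted p of at most 0.18 in all of them. The call from F140 to P5 ended in 6 of 23 settings, among them leaving out F140 replicate 1 or 2 or P5 replicate 1 or 3, with an adjusted p of at most 0.085.

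The remaining arms were dim and did not pass the test in any comparison. miR-503-5p, the partner of miR-424 with nearly its seed, read 18, 21 and 11 units at F91, 28, 41 and 29 at F140, 6, 8 and 8 at P5, and 11, 7 and 10 at P173. Its F140 hearts were above all others, but only 1 array reached 32 units, and the log2 change from F91 was 0.996 (standard error 0.61, adjusted p = 0.48) and -2.13 from F140 to P5 (adjusted p = 0.099). miR-542-5p, from the opposite side of the hairpin of miR-542-3p, read 29, 32 and 47 units at F91, 52, 69 and 72 at F140, 18, 17 and 7 at P5, and 25, 53 and 21 at P173. Its P5 hearts were below all others, with a log2 change from F140 to P5 of -2.29 (standard error 0.56, adjusted p = 0.055), while F140 and P173 overlapped.

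miR-424-3p, cut from the same hairpin as miR-424-5p, was highest at F91 and not at F140 in the normalised values. It read 35, 51 and 48 units at F91, 24, 29 and 31 at F140, 27, 28 and 15 at P5, and 10, 8 and 23 at P173. The F91 hearts were above all others in these values, and the other ages were below background. In the scans before normalisation the median of its 3 spots was 76.6 to 125 at F91 and 99.4 to 135 at F140. Empty spots read 49.4 to 83.3 and 60.6 to 80.1 there, so the F91 hearts stood above the others only after normalisation. The log2 change from F91 to P173 was -1.84 (standard error 0.56, adjusted p = 0.074). The pair of miR-503-3p probes read 13 to 37 units for F91 hearts, 10 to 40 for F140, 3 to 13 for P5 and 2 to 15 for P173, with overlap between F91 and F140. Of the 3 miR-450c-3p probes the brightest read 18 to 38 units at F140 and 3 to 17 elsewhere, and the others read 0 to 26.

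Over the 16 probes, the F-test over the 4 ages passed for 5, against 8.7 % of the 3091 probes. From F91 to F140, 5 rose and none fell, where 3.85 % of all probes rose and 1.68 % fell. They were the 3 probes of miR-424-5p, bta-miR-450b and the miR-542-3p probe, so 3 of 9 arms. From F140 to P5, 4 fell, the same probes without bta-miR-450b, against 0.971 % of all probes. From F140 to P173, 4 fell, the 3 probes of miR-424-5p and bta-miR-450b, against 2.43 %. These 3 comparisons share the F140 arrays, so they are not independent. From P5 to P173 and from F91 to P173, 0 of the 16 passed limma, where 1.59 % and 6.76 % of all probes did, and 3 and 2 of the 16 had an unadjusted p under 0.05. The F140 arrays were all above the 9 other arrays for 10 of the 16 members and for 4.46 % of all probes. The median log2 change from F91 to F140 was 2.81 over the 16 members and 0.07 over the 3091 probes, and with values under 32 units set to 32 it was 0.46 and 0.00.

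Same-numbered arrays of F91 and F140 showed like deviations from their age means, though nothing in the labels ties these fetuses. The correlations were 0.21, 0.14 and 0.28 over all probes, and 0.51, 0.49 and 0.51 over the 775 probes that averaged 100 units or more. With the replicate number as a block, the fit of all 12 arrays kept a count of 5 for F140 against F91, whereas the fit of these 2 ages alone with the block called 0 members and 0 of all 3091 probes (8 of the 16 had an unadjusted p under 0.05). Fitted alone without the block, the 2 ages gave 1 call, bta-miR-450b (adjusted p = 0.036), and an adjusted p of 0.079 for bta-miR-424-5p. Leaving out P5 replicate 3 took the count from F140 to P5 from 4 to 0, and leaving out P5 replicate 1 or F140 replicate 1 took it to 1.

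Members that were high at F140 were AU-rich, and probes for AU-rich targets were brighter on the F140 arrays in general. Over 775 bright probes, log2 signal changed by -0.32 ± 0.15 per 10 % of GC content at F140 (SD, n = 3), against 0.18 ± 0.36 at F91, 0.04 ± 0.11 at P5 and 0.10 ± 0.14 at P173. The 11 members with a GC content of 27.3 to 40.9 % had a median log2 change from F91 to F140 of 3.58, and F140 was above all other arrays for 9 of them. The 5 members with 52.4 to 60.9 % had a median of -0.23, and F140 was above all others for 1, miR-503-5p. With the trend taken out of each array, the medians were 2.60 and 0.33. For bta-miR-424-5p the change was then 3.59 (adjusted p = 0.0016), and for bta-miR-450b 3.95 (adjusted p = 0.02). The call of miR-542-3p against F91 ended (log2 change 2.54, adjusted p = 0.13), as did that of bta-miR-450b from F140 to P173 (-3.17, adjusted p = 0.071), while miR-542-5p passed from F140 to P5 (-2.47, adjusted p = 0.04). After this correction 4 members were called from F91 to F140, where 5.08 % of all probes were called in either direction. The trend was fitted on probes that averaged 100 units or more, and of the members only those of miR-424-5p did. For the dimmer members the correction extends the trend beyond the range in which it was fitted.

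**Figure D2:**
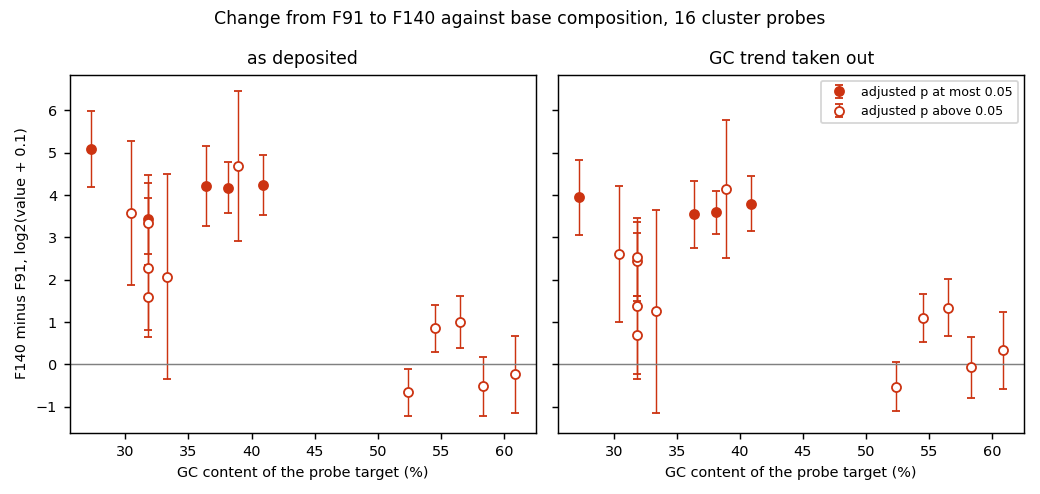
Fitted change from F91 to F140 (log2 of value + 0.1) against the GC content of the target (%) for the 16 cluster probes, with the values as deposited (left) and with the GC trend of each array taken out (right). Bars are standard errors, filled points passed the test (5 on the left, 4 on the right). All 11 probes under 50 % GC lie above 0 on both sides, and the 5 others lie between -0.66 and 1.34.

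For 4 pairs of arms the log2 ratio of their signals within each array was compared between ages, by an exact permutation test over 369600 assignments of the 12 arrays to the 4 ages. The ratio of miR-424-5p to miR-424-3p, the pair of arms of 1 hairpin, was 5.99 ± 0.18 at F140 (SD, n = 3), 1.16 ± 1.67 at F91, 2.52 ± 0.07 at P5 and 2.93 ± 1.25 at P173. The F140 hearts, at 5.79 to 6.14, were above all 9 others, and the ages differed (exact permutation p = 0.0047, adjusted 0.011). miR-424-5p to miR-503-5p was 5.78 ± 0.44 at F140 and 2.61 ± 1.17, 4.14 ± 0.69 and 3.35 ± 0.58 at F91, P5 and P173 (exact permutation p = 0.0053, adjusted 0.011). Both stayed past the threshold in all 15 alternatives, with an adjusted p of at most 0.032. The partner arms were dim, however: miR-424-3p was below background at F140, P5 and P173, and miR-503-5p reached 32 units on only 1 of the 12 arrays. With values under 32 units set to 32, each ratio therefore mostly repeats the change of miR-424-5p itself, and for most arrays an unequal change of the partner cannot be told apart from a partner too dim to measure.

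miR-542-3p to miR-542-5p was 0.01 ± 0.50 at F140 and between -2.58 and -2.08 on average at the other ages (exact permutation p = 0.012, adjusted 0.016). This pair did not hold with the GC trend taken out (adjusted p = 0.17) or with values under 32 units set to 32 (adjusted p = 0.76). miR-450a-5p to miR-450b-5p was -0.29 ± 0.63 at F140 and 1.44 ± 2.81 at F91, with no difference past the test (exact permutation p = 0.57). Without F91 replicate 3, in which miR-450a-5p read 2 units, that pair passed (adjusted p = 0.012). A ratio does not show which arm is more abundant, and each of the 4 pairs but the last sets an AU-rich target against a GC-rich one.

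**Figure D3:**
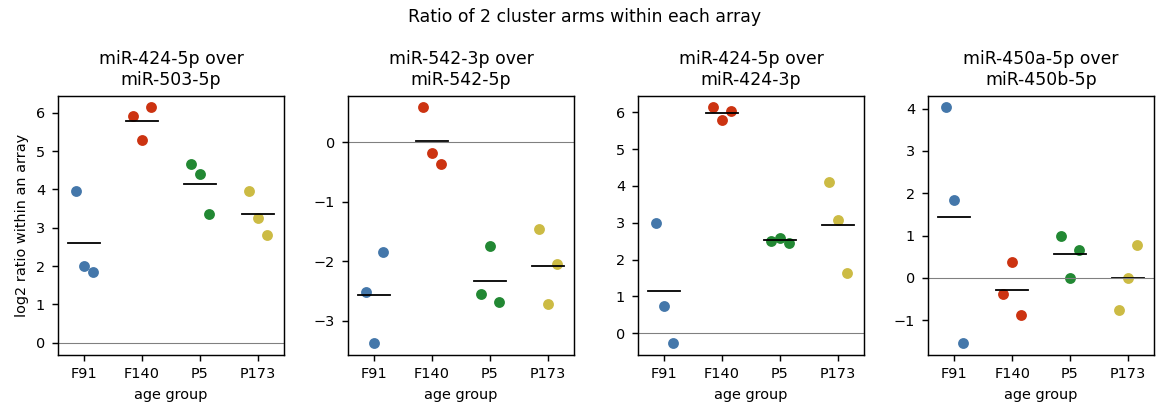
Log2 ratio of the signals of 2 cluster arms within each array, by age group, for 4 pairs. Points are hearts (3 per age) and black lines are age means; the panels have separate vertical axes. In the third panel miR-424-5p over miR-424-3p is 5.79 to 6.14 at F140 and at most 4.11 on the other arrays.

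Other genes that carry the seed of miR-424-5p did not share one profile. Their values are as deposited, without the GC trend taken out. By the array signal alone, miR-15a and miR-195 rose from F91 to F140. No other measure of these miRNAs was used here. miR-15a went from 85.0 ± 91.7 to 516 ± 88.3 units (log2 change 3.26, adjusted p = 0.024). miR-195 went from 5.00 ± 3.61 units, below background, to 84.3 ± 15.8 (log2 change 4.28, adjusted p = 0.0055). miR-15b fell over the same interval, from 4463 ± 1351 to 1101 ± 117 units (log2 change -1.98, adjusted p = 0.0046). miR-16, miR-16a and miR-16b, far brighter than miR-424-5p, fell from F91 to P173 with miR-15b, by 1.29 to 4.03 on the log2 scale. miR-195 and miR-497 rose, but both were below background at F91 (2 to 9 and 2 to 13 units). At P173 they read 21 to 71 and 28 to 35 units. Of the 7 names of this family outside the cluster, 2 rose and 1 fell from F91 to F140 (3.85 % and 1.68 % of all probes). None passed from F140 to P5 (1.81 % of all probes in either direction), and 2 rose and 4 fell from F91 to P173 (3.24 % and 3.53 %). From F140 to P5 the median log2 change of the 7 names was -0.28. miR-195 came nearest to passing there, with a log2 change of -2.93 (adjusted p = 0.0501). The names miR-16, miR-16a and miR-16b, of human, bovine and ovine probes, are forms of miR-16 and not independent of each other. They and miR-15b were the 4 that fell.

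**Figure D4:**
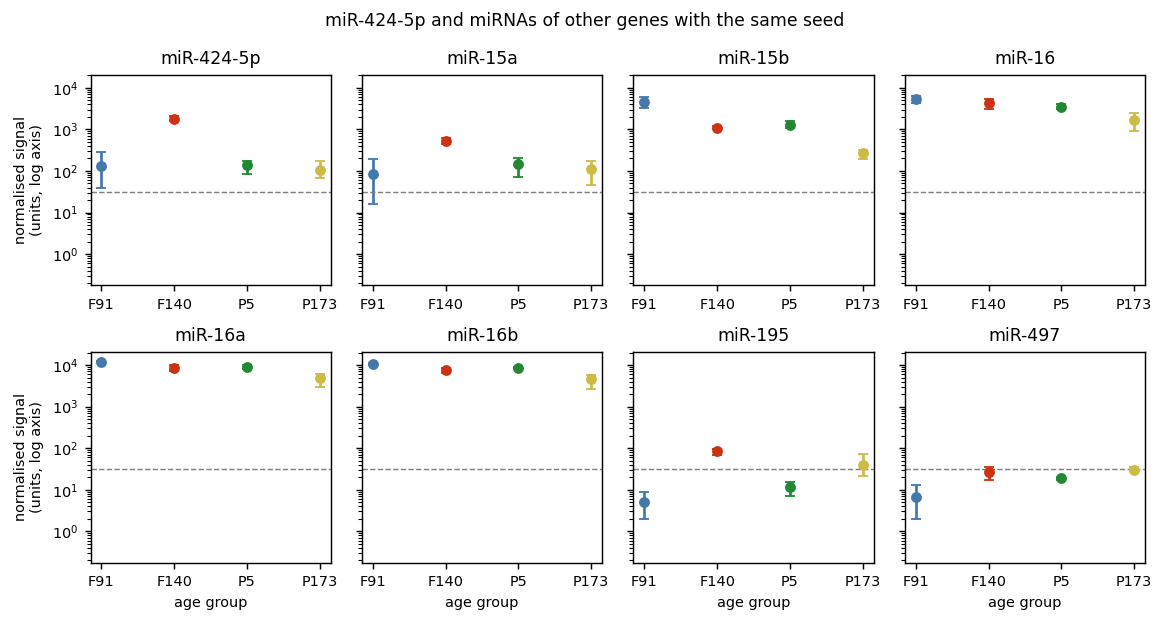
Normalised signal (units, log axis) of bta-miR-424-5p and of 7 miRNA names of other genes with the same seed, by age group. miR-16, miR-16a and miR-16b are forms of miR-16 and not independent of each other. Points are means of 3 hearts, bars run from the lowest to the highest heart and the dashed line is 32 units. The means of miR-424-5p, miR-15a and miR-195 are highest at F140 (1788, 516 and 84.3 units), while miR-15b is highest at F91 (4463 units).

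A separate transcript near by on the X chromosome in human and mouse carries miR-106a, miR-18b, miR-20b, miR-19b, miR-92a and miR-363. Mature miR-19b and miR-92a are also made from the miR-17-92 transcript of another chromosome, and the array cannot tell the sources apart. The values below are as deposited, without the GC trend taken out. miR-19b was below background at F91 (18.7 ± 8.33 units) and rose to 299 ± 85.2 units at F140 (a log2 change of 4.05, adjusted p = 0.0013). It fell by 3.91 on the log2 scale to P5 (adjusted p = 0.0031), where it was again below background (11 to 26 units). Of these 6 names, 1 rose from F91 to F140 (3.85 % of all probes), 2 fell from F140 to P5 (miR-19b and miR-106a, against 0.971 %) and 3 fell from F140 to P173 (against 2.43 %). The probe counted for miR-18b, a variant of its 3p arm in mouse, read 0 to 19 units, below background at every age. miR-92a read 3732 ± 622 units at F91 and 1676 ± 237 at F140, and thus was not highest at F140 (log2 change -1.15, adjusted p = 0.055).

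Some markers of cells of the heart changed from F91 to F140, in both directions. The marker values are as deposited, without the GC trend taken out. Of 6 heart muscle markers, miR-1, miR-208b and miR-499 rose from F91 to F140, miR-208b from below background (0 to 8 units). miR-133a and miR-133b changed by -0.04 and -0.07 on the log2 scale (adjusted p = 0.97 and 0.92). The summed signal of the list was 23466 to 25187 units for F91 hearts and 43912 to 56338 for F140. It was 31871 to 43502 for P5 and 42481 to 48415 for P173. From F140 to P5, where 4 members of the cluster and 0.971 % of all probes fell, 1 heart muscle marker fell (miR-208b). None of the other lists' markers passed. The median log2 change of each list but that of other organs was negative, from -0.27 (smooth muscle) to -1.38 (fibroblasts). With 3 arrays per age, not passing does not show that a marker stayed level. A bovine probe of miR-208a, a miRNA of heart muscle, read 0 to 27 units, below background on all arrays, and the probe counted in the list, a variant of mouse miR-208a-5p, read 0 to 54. The endothelial marker miR-126 read 923 to 4211 units at F91 and 6044 to 8703 at F140, where it was called higher, and 2197 to 4476 afterwards. Of 3 fibroblast markers, miR-21 rose and miR-214 fell from F91 to F140, while miR-199a did not pass (log2 change 1.46, adjusted p = 0.17). The sum of the 3 was 7460 to 10674 units at F91 and 4184 to 6867 at F140. It follows miR-214, which averaged 7475 units at F91 and 1988 at F140, while the means of miR-21 and miR-199a were higher at F140. Of 3 red blood cell and 4 white blood cell markers, 1 each rose from F91 to F140, with sums of 769 to 2123 and 232 to 323 units at F91 and 3721 to 4577 and 293 to 451 at F140, and neither of 2 smooth muscle markers did. Of other organs, the liver miRNA miR-122 read 4 to 66 units. The probes counted for brain and pancreas were mmu-miR-9-3p and rno-miR-375-5p, which are not the arms these markers are best known for, and with miR-122 they summed to 8 to 81 units, while bta-miR-375 read 0 to 7. The part of these cells in the results for the cluster was not tested.

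Among 393 names outside the cluster, the profile most like that of miR-424-5p over the 12 arrays was that of miR-15a (Pearson r = 0.950), followed by miR-20a (0.949), miR-21 (0.944), miR-218a (0.942) and miR-192 (0.933). The same 5 names led with the GC trend taken out. For miR-503-5p the leading names were miR-20b (0.851), miR-17 (0.839), miR-199a (0.836), miR-192 (0.827) and miR-30a (0.813), at lower likeness. With the GC trend taken out, miR-218a took the place of miR-30a, and r ran from 0.848 to 0.907. miR-503-5p read only 6 to 41 units, so its profile is that of a dim signal. The 3 miR-424-5p probes correlated at 0.874 to 0.973 with each other. These are descriptions over 12 arrays of 4 ages that share array brightness and base composition, and 1014 probes were searched.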

How the data were processed

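Total RNA of left ventricle from 12 sheep was labelled with Cy3 and read on a custom miRNA array. The deposited table gives a score per probe, in whole numbers on a linear scale, for which the authors subtracted background, applied lowess normalisation and merged replicate spots. A deposited value table gives the same intensities with decimals, and the authors' scanner files give the raw intensity of each of 10044 spots, 80 of them empty. For normalisation the methods cite the CLCBIO software. Target sequences came from the scanner files.

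Of 3146 probes in the table, 55 controls were left out and 3091 tested as log2(value + 0.1) with limma 3.58.1 under R 4.3.3 (lmFit and eBayes, variance trend on) over all arrays, by an F-test and 5 contrasts, with Benjamini-Hochberg adjustment over all probes. Python 3.11.15, numpy 2.4.6, pandas 2.3.3 and matplotlib 3.10.9 served for tables and figures. The fit was tested on simulated data in which only probes averaging 100 units or more were changed. That test does not cover the dim members.

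Every probe that carried 1 of the cluster's names was a member. Each arm got a reference probe: exact ovine, then exact bovine, then any exact probe, then variants, with ties settled by brightness. Lists of seed relatives, neighbours and cell markers had 1 probe per name by the same rule, and the 5 most similar profiles were named. The values of these lists were not corrected for the GC trend. Members, lists and tests were chosen with earlier results of these data known. The GC trend of each array was fitted as deviations from probe means over the 775 probes that averaged 100 units or more. The replicate numbers of F91 and F140 arrays were treated as possibly paired because all 3 correlations of deviations were over 0.1; no label states a pairing, and other ages did not show it.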

Additional observations from a re-analysis of the deposited data

How the results depend on the processing

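Directions of called changes held throughout: of 1282 recomputed values for single probes and contrasts, 0 reversed a call, 65 lost and 45 gained one. These values cover 51 results, most of which were not called in the main fit and so had no call to lose. Among the called results the share of lost calls is therefore larger than 65 of 1282. In 30 of the values that were called in neither fit, the sign changed. Counts of members called moved with the setting. With a pseudocount of 16 units, 8 members passed the F-test, and 8 were called for F140 against F91, 7 for P5 against F140, 1 for P173 against F91 and 9 for P173 against F140. From the scanner intensities (normexp, offset 50, and quantile normalisation), 8 passed the F-test, with 8 for P5 against F140, 1 for P173 against F91 and 7 for P173 against F140. With values under 32 units set to 32, 7 were called for P173 against F140, and with the filter on dim probes 1 for P173 against F91. Without a variance trend, 1 was called for P5 against F140 and 2 for P173 against F140. The 2 ages alone gave 1 for F140 against F91. With the GC trend removed and a replicate block together, 3 passed the F-test; the replicate block by itself changed no count from the fit of all 12 arrays. Alternatives chosen after seeing the data were the 2 ages alone with the replicate block (0 for F140 against F91, or 3 with the GC trend also taken out), leaving out the dimmest scan of F91 and that of P173, F91 replicate 3 and P173 replicate 2, (4 for F140 against F91), and leaving out F91 replicates 1 and 3 and P173 replicate 2 (8 for P5 against F140). Leaving out each array in turn gave 2 to 6 for the F-test, 3 to 7 for F140 against F91, 0 to 6 for P5 against F140, 0 to 0 for P173 against P5, 0 to 1 for P173 against F91 and 2 to 8 for P173 against F140. In the arrays left out in turn, the excess of the log2 ratio at F140 over the mean of the other ages was 3.55 to 4.09 for miR-424-5p to miR-424-3p, 2.24 to 2.66 for miR-424-5p to miR-503-5p, 2.06 to 2.53 for miR-542-3p to miR-542-5p and -1.46 to -0.53 for miR-450a-5p to miR-450b-5p. For miR-542-3p to miR-542-5p it was 2.34, and 0.16 with values under 32 units set to 32 and 1.36 with the GC trend taken out, neither past the test. The cause of these moves was not tested. A slide or scan batch as a block was not run, because the files name neither. Dim signal limits most members: 7 of the 16 probes reached 32 units on fewer than 3 arrays, and small values near 0 give large log2 changes.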

Other observations

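A pair of probes with predicted arms of the same hairpins, named in lower case and so outside the member names, were read as well. The predicted 3p arm of miR-450b read 1 unit on each F91 array, 23, 22 and 21 at F140, 1, 9 and 5 at P5, and 0, 8 and 8 at P173, so that its F140 hearts were above all others although every value was below 32 units. The predicted 5p arm of miR-503, a target of 17 bases, read 10, 7 and 29 units at F91, 7, 4 and 19 at F140, 5, 7 and 5 at P5, and 7, 6 and 13 at P173, with all ages overlapping.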
